A study of Mus musculus with 4 samples.

Results

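The interleukin-1 system was examined in mouse acute myeloid leukaemia cells through 10 genes: Il1a, Il1b, Il1rn, Il1r2, Il1rap, Il18, Nlrp3, Casp1, Pycard and Gsdmd. They are the ligands of the IL-1 and IL-18 branch, the antagonist, the decoy and accessory receptor chains and the parts of the NLRP3 inflammasome. They were taken by symbol from a table of 24497 gene rows, all 10 had 1 row each, and all 10 reached 1 TPM (a unit of transcripts per length, scaled to the same total in each library) in at least 2 libraries. RNA came from cultured NRAS/AE9a leukaemia cells derived from haematopoietic stem cells of the bone marrow, 2 libraries of Tet2 KO cells and 2 of WT cells. Tet2 encodes a dioxygenase that oxidises 5-methylcytosine, and the Tet2 KO cells came from Tet2-/- mice that lack exon 3 of the gene. Both genotypes carry NRAS and AE9a, a shortened AML1-ETO fusion. The medium of both held 50 ng/ml stem cell factor, 10 ng/ml IL-3, 10 ng/ml IL-6 and the selection drugs G418 (1 mg/ml) and puromycin (2 µg/ml). The labels give no treatment and no animal age, and do not say whether replicate libraries stem from separate cultures or mice. All p-values below are therefore set against the spread of these 4 libraries alone, and that spread may be technical only.

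IL-1 alpha and IL-1 beta signal through a receptor pair of IL-1R1 and the accessory protein encoded by Il1rap. The antagonist encoded by Il1rn occupies IL-1R1 without signalling, and the decoy receptor encoded by Il1r2 binds the ligands but has no signalling domain. IL-1 beta and IL-18 are made as inactive precursors. In a stressed or infected myeloid cell the sensor NLRP3 recruits the adaptor ASC (Pycard), which gathers and activates caspase-1, and caspase-1 cuts both precursors and the pore protein gasdermin D. RNA levels do not show whether any of these proteins was made, cut or released.

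RNA of the ligand, antagonist and decoy genes was lower in Tet2 KO cells, while RNA of the sensor, protease and pore genes was slightly higher on the deposited scale. The decoy Il1r2, the agonist Il1a and the antagonist Il1rn were each at least 2-fold lower on the log2(TPM + 1) scale. Pycard was lower, apart from the other inflammasome parts. In the fit of limma to all 11452 tested genes, 3 of the 10 genes were higher and 7 lower at a Benjamini-Hochberg adjusted p under 0.05. The same call was made for 73.9% of all tested genes, 54.4% higher and 19.5% lower, so being called sets none of the 10 apart. At 2-fold or more, 0 of the 10 were higher and 3 lower, against 6.1% and 2.8% of all tested genes. The 2 Tet2 KO libraries and the 2 WT libraries did not overlap for any of the 10 genes, which was also true of 86.8% of tested genes. The median log2 fold change was -0.52 over the 10 genes and 0.23 over all genes. Because the median over all genes was 0.23, differences are also given on rescaled values, in which each library was divided by its median ratio so that this median sits near 0. After rescaling, 1 of the 10 genes was higher and 7 lower, against 33.3% and 34.4% of all tested genes, and the median of the 10 was -0.74. Of all calls, 49.2% were then higher, against 73.6% on the deposited scale.

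**Figure D1:**
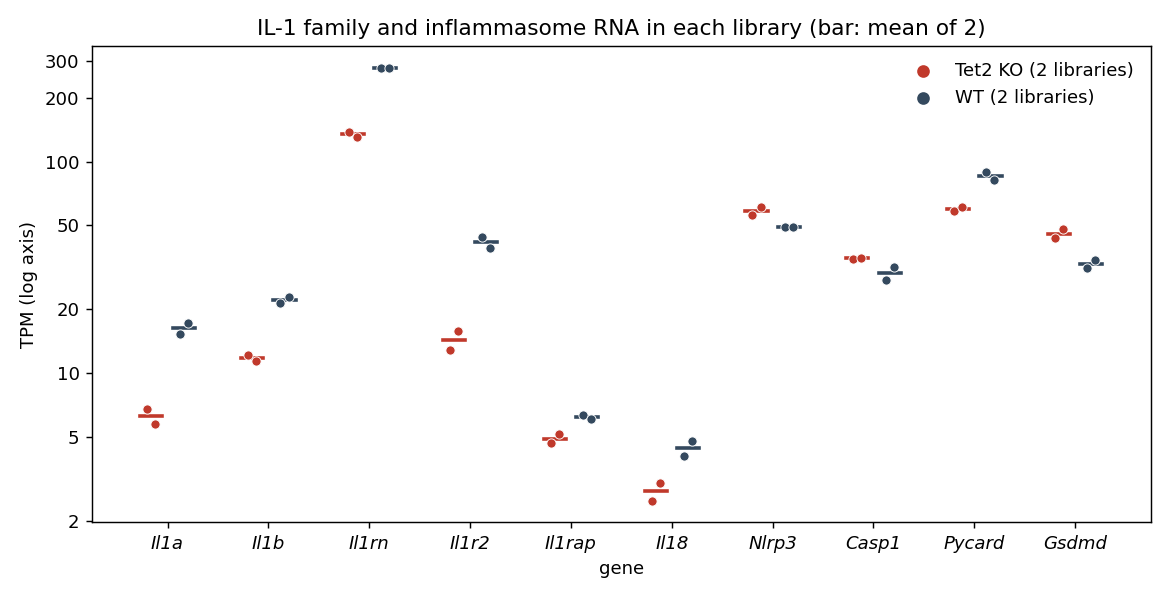
TPM of the 10 genes on a log axis, in the 2 Tet2 KO libraries (red) and the 2 WT libraries (dark), with a bar at each group mean. The Tet2 KO points lie below the WT points for Il1a, Il1b, Il1rn, Il1r2, Il1rap, Il18 and Pycard and above them for Nlrp3, Casp1 and Gsdmd.

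Among the library-wide facts, Tet2 stood at 16.98 and 16.95 TPM in Tet2 KO cells and at 16.62 and 16.98 TPM in WT cells, and this gene-level value does not separate exon 3, so it does not check the deletion. Spike-in RNAs took 5.33 to 5.48% of the Tet2 KO totals and 4.38 to 4.43% of the WT totals. The myeloid identity of the cells was visible in both genotypes: all 9 markers listed for leukaemic myeloid cells were tested, with summed levels of 1757 and 1794 TPM in Tet2 KO cells and 1578 and 1591 TPM in WT cells. Of the 9, 7 were higher and 2 lower (Spi1 and Itgam), against 54.4% and 19.5% of all tested genes. After rescaling 5 were higher and 3 lower, against 33.3% and 34.4%. The difference in sums lay in Kit, the stem cell factor receptor gene, with 201.19 and 209.41 TPM in Tet2 KO cells and 11.63 and 11.99 TPM in WT cells. Without Kit the sums were 1556 and 1585 TPM in Tet2 KO cells and 1566 and 1579 TPM in WT cells. Markers of T and NK cells summed to at most 0.33 TPM in any library, with Cd3e, Cd3g and Ncr1 at 0, those of B cells to at most 0.82 TPM, with Pax5 at 0, and those of stromal and endothelial cells to at most 0.68 TPM.

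The promoters of the ligand, antagonist and decoy genes are shown because these are the 4 genes with the largest falls and because Tet2 acts on methylated cytosine. Each line holds the 250 bases before the RefSeq start on GRCm38.p6 (mm10), read 5′ to 3′ on the gene's strand, with every CG pair in capitals. Il1a lies on the minus strand, with its promoter at chr2:129309973-129310222, and so does Il1b, at chr2:129371140-129371389. Those of Il1rn (the first of 3 listed starts, chr2:24336610-24336859) and Il1r2 (chr1:40085843-40086092) lie on the plus strand. The RefSeq start of Il1r2 is 12.01 kb inside the gene as GENCODE M21 annotates it.
Il1a: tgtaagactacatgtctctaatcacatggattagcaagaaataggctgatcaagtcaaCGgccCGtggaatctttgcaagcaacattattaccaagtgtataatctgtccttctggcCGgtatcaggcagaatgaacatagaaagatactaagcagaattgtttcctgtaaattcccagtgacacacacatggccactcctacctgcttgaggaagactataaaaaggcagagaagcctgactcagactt
Il1b: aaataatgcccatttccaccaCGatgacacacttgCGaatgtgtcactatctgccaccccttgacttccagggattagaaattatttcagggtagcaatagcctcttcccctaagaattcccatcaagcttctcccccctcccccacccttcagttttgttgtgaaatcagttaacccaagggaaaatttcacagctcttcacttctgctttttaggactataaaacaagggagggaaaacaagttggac
Il1rn: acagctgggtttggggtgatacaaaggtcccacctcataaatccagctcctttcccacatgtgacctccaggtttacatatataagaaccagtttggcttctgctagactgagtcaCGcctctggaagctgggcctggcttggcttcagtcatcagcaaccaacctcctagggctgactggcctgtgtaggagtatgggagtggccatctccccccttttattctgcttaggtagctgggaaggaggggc
Il1r2: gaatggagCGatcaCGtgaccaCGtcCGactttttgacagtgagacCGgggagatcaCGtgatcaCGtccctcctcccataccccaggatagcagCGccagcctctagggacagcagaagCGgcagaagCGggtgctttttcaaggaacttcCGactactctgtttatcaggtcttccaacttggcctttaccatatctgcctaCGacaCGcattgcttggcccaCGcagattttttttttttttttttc

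These windows held 3 CG pairs in Il1a, 2 in Il1b, 1 in Il1rn and 14 in Il1r2, against a median of 16 (quartiles 9 and 23) over the promoters of 9261 tested genes. A promoter was found for 9 of the 10 genes, and 8 of these 9 had fewer CG pairs than that median. The exception was Il1rap with 30. A TATAAA on either strand was present in 3 of the 9 (Il1a, Il1b and Il18) and in 6.35% of the promoters of tested genes. It began 32 bases before the start in Il1a and 31 bases before it in Il1b, while in Il18 it lay on the opposite strand only. The AP-1 motif TGANTCA was present in 2 of the 9 (Il1a and Il1rn), against 4.39% of promoters. The PU.1 core GAGGAA, on either strand, was in 4 (Il1a, Nlrp3, Casp1 and Pycard), against 22.9%, and the RUNX core TGTGGT was in 1 (Il18), against 11% (both strands). No overlap between motifs was removed. The AP-1 match of Il1rn lay at its first listed start and at none of the others. Those lie 8.44 and 8.52 kb inside the gene, and their windows held 4 CG pairs each. The gene-level values do not show which start of Il1rn these cells use. Nlrp3 has a second listed start, where the PU.1 core was absent. Such matches describe letters in the window, and DNA methylation and factor binding were not measured in these libraries.

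Il1a (chromosome 2, 129299610 to 129309972, mm10, minus strand), the gene of the agonist IL-1 alpha, had 6.79 and 5.73 TPM in Tet2 KO cells, against 15.29 and 17.29 TPM in WT cells. Every Tet2 KO value was below every WT value, a 2.60-fold lower mean (log2 fold change -1.25, SE 0.0933, limma adjusted p = 6.00e-09). Il1b (129364570 to 129371139 on the same chromosome and strand), the gene of IL-1 beta, had 12.11 and 11.38 TPM in Tet2 KO cells and 21.46 and 23.01 TPM in WT cells. It was lower in Tet2 KO by 1.89-fold in mean TPM (log2 fold change -0.87, SE 0.0728, limma adjusted p = 1.98e-08) and by more than 2-fold after rescaling (-1.10). Both genes lie within 71.5 kb. The ratio of Il1b to Il1a was 1.78 and 1.99 in Tet2 KO cells and 1.40 and 1.33 in WT cells, with no overlap between the groups. Like the ratios below, it was not tested.

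Il18 (chromosome 9, 50554827 to 50581840), the gene of the other caspase-1 substrate cytokine, was the lowest of the 10. It had 2.49 and 3.03 TPM in Tet2 KO cells and 4.07 and 4.76 TPM in WT cells, a 1.60-fold lower mean (log2 fold change -0.53, limma adjusted p = 6.68e-04). It overlaps Bco2 on the other strand, which stayed between 0.42 and 1.06 TPM. The library kit marked strand, but whether the quantification used it is not stated in the labels, so reads of overlapping genes may have been shared. This limit also holds for Il1a, Il1b and Il1r2, which overlap Gm14023, Il1bos and Gm16894 on the other strand. Those were listed at 0.54 to 1.17, 0.05 to 0.23 and 0.37 to 0.67 TPM.

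Il1rn (chromosome 2, 24336853 to 24351494, plus strand), the gene of the receptor antagonist, was the most abundant of the 10 in every library. It had 137.67 and 131.73 TPM in Tet2 KO cells, against 279.36 and 277.38 TPM in WT cells. The Tet2 KO mean was 2.07-fold lower (log2 fold change -1.04, SE 0.0427, limma adjusted p = 2.89e-12). Agonist and antagonist RNA thus differed in the same direction, and their ratios, which a single factor per library leaves as they are, differed less than the levels. The ratio of Il1b to Il1rn was 0.088 and 0.0864 in Tet2 KO cells and 0.0768 and 0.083 in WT cells. For Il1a to Il1rn it was 0.0493 and 0.0435 in Tet2 KO cells and 0.0547 and 0.0623 in WT cells. The groups did not overlap in either ratio, with Il1b slightly higher and Il1a lower relative to the antagonist in Tet2 KO cells. Quantile normalization, which is not a single factor, turned the first: the log2 fold change of Il1b minus that of Il1rn was 0.18 on the deposited scale and -0.03 under it, while Il1a stayed lower relative to Il1rn (-0.21 and -0.42). The ratios are given as values without a call, since with 2 libraries against 2 an exact two-sided permutation test cannot go below p = 0.33.

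Il1r2 (chromosome 1, 40074079 to 40125231, plus strand), the decoy receptor gene, showed the largest difference of the 10 on the deposited scale, though not without Tet2 KO replicate 1 (log2 fold change -1.33, against -1.36 for Il1a). It had 12.81 and 15.9 TPM in Tet2 KO cells, against 44.15 and 38.89 TPM in WT cells. The mean was 2.89-fold lower in Tet2 KO (log2 fold change -1.47, SE 0.105, limma adjusted p = 3.84e-06). The ratio of ligand to decoy RNA, Il1b to Il1r2, was 0.945 and 0.716 in Tet2 KO cells and 0.486 and 0.592 in WT cells, higher in both Tet2 KO libraries. Il1rap (chromosome 16, 26581704 to 26730117), the gene of the accessory chain of several IL-1 family receptors, had 4.64 and 5.14 TPM in Tet2 KO cells and 6.31 and 6.08 TPM in WT cells. The mean was 1.27-fold lower (log2 fold change -0.29, limma adjusted p = 0.0135), or -0.50 on the log2 scale after rescaling. That call did not hold without Tet2 KO replicate 1 (limma adjusted p = 0.0716) or without WT replicate 1 (0.0914), with a range of 8.80e-06 to 0.0914 over the alternatives. Gm20319, an antisense gene that overlaps Il1rap, was listed at 7.69 to 9.79 TPM, above Il1rap itself, so the value of Il1rap is uncertain.

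**Figure D2:**
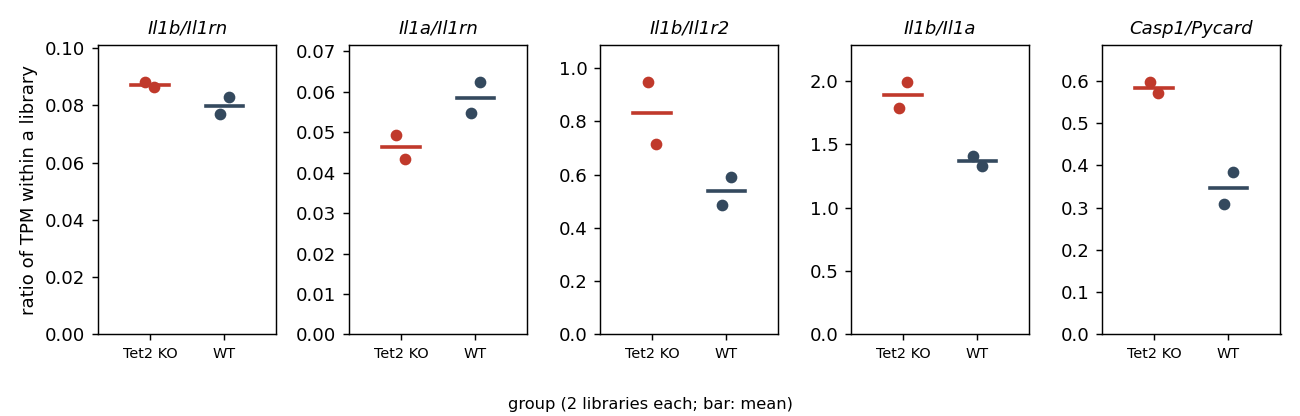
Ratios of TPM between pairs of the 10 genes within each library, Tet2 KO on the left and WT on the right of each panel, with a bar at the mean of 2 libraries. Il1b to Il1rn lies between 0.0768 and 0.088 in all libraries and is slightly higher in both Tet2 KO libraries. Il1b to Il1r2, Il1b to Il1a and Casp1 to Pycard are higher in both as well, and Il1a to Il1rn is lower.

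The inflammasome genes divided. Nlrp3 (chromosome 11, 59541568 to 59566956), the sensor gene, had 56.22 and 61.14 TPM in Tet2 KO cells and 49.38 and 49.15 TPM in WT cells (log2 fold change 0.25, with a limma adjusted p of 0.00103). Casp1 (chromosome 9, 5298517 to 5307265), the protease gene, had 34.81 and 35.07 TPM in Tet2 KO cells and 27.64 and 31.65 TPM in WT cells (log2 fold change 0.23, with a limma adjusted p of 0.00528). Both differences were the size of the median over all genes. After rescaling they were 0.0048 for Nlrp3 (SE 0.0493, limma adjusted p = 0.939, range over alternatives 4.65e-04 to 0.939) and -0.0057 for Casp1 (SE 0.0635, limma adjusted p = 0.943, range 0.00237 to 0.993). Without WT replicate 1, Casp1 was not called on the deposited scale either (log2 fold change 0.14, limma adjusted p = 0.169).

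Gsdmd (chromosome 15, 75862327 to 75867408), the gene of the pore protein gasdermin D, was the one member that was higher on both scales. It had 43.36 and 48.1 TPM in Tet2 KO cells and 31.46 and 34.33 TPM in WT cells, a 1.39-fold higher mean (log2 fold change 0.46, SE 0.0657, limma adjusted p = 1.06e-05). After rescaling the difference was 0.22 (limma adjusted p = 0.00989, range over alternatives 2.49e-07 to 0.0252). Pycard (chromosome 7, 127989708 to 127993867), the gene of the adaptor ASC, was lower instead, with 58.4 and 61.32 TPM in Tet2 KO cells and 89.41 and 82.18 TPM in WT cells. Its mean was 1.43-fold lower (log2 fold change -0.51, SE 0.056, limma adjusted p = 4.73e-07). On the log2 scale the difference was -0.75 after rescaling and -0.80 with spike-in scaling. Protease RNA was accordingly higher relative to adaptor RNA, with a ratio of Casp1 to Pycard of 0.596 and 0.572 in Tet2 KO cells and 0.309 and 0.385 in WT cells.

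**Figure D3:**
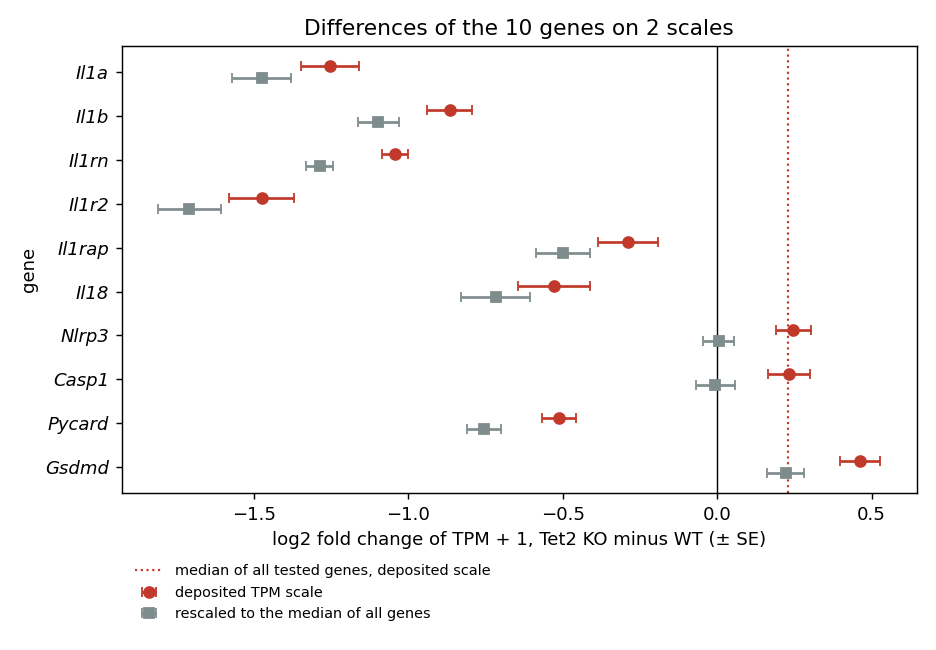
Log2 fold change of TPM + 1, Tet2 KO minus WT, with its SE, for the 10 genes on the deposited scale (red circles) and after rescaling (grey squares). The dotted line marks the median of all tested genes, 0.23, on which Nlrp3 and Casp1 lie on the deposited scale.

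TPM is per transcript length, so levels of different genes can be set side by side. In Tet2 KO cells the order of mean TPM was Il1rn at 134.7 ± 4.20, Pycard at 59.9 ± 2.06, Nlrp3 at 58.7 ± 3.48, Gsdmd at 45.7 ± 3.35, Casp1 at 34.9 ± 0.184, Il1r2 at 14.4 ± 2.18, Il1b at 11.7 ± 0.516, Il1a at 6.26 ± 0.75, Il1rap at 4.89 ± 0.354 and Il18 at 2.76 ± 0.382 (SD, n = 2). In WT cells it was Il1rn at 278.4 ± 1.40, Pycard at 85.8 ± 5.11, Nlrp3 at 49.3 ± 0.163, Il1r2 at 41.5 ± 3.72, Gsdmd at 32.9 ± 2.03, Casp1 at 29.6 ± 2.84, Il1b at 22.2 ± 1.10, Il1a at 16.3 ± 1.41, Il1rap at 6.20 ± 0.163 and Il18 at 4.42 ± 0.488 (SD, n = 2). Neighbours overlapped only for Pycard and Nlrp3 in Tet2 KO cells and for Gsdmd and Casp1 in WT cells. Il1r2 ranked 6 in Tet2 KO cells, below Gsdmd and Casp1, and 4 in WT cells, above both.

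Il1r2 belongs to a cluster of 6 IL-1 family receptor genes on chromosome 1 (40074079 to 40551705, plus strand throughout), and the cluster split along its length. The 3 genes nearest its start were lower and the 3 farthest from it were higher in Tet2 KO, before and after rescaling. Over all tested genes 54.4% were higher and 19.5% lower, or 33.3% and 34.4% after rescaling. The split by position was noticed in these values and was not tested. Il1r1 and Il18r1 are named here after their values were seen. After Il1r2 came Il1r1, the signalling IL-1 receptor, with 8.2 and 8.48 TPM in Tet2 KO cells and 10.39 and 12.22 TPM in WT cells (limma adjusted p = 9.03e-04), a log2 fold change of -0.39, or -0.62 after rescaling. Il1rl2, the IL-36 receptor gene, followed with 7.58 and 8.78 TPM in Tet2 KO cells and 17.72 and 18.65 TPM in WT cells, a 2.22-fold lower mean (limma adjusted p = 8.78e-09). Il1rl1, the IL-33 receptor gene and also a mast cell gene, was in contrast 3.01-fold higher, with 100.62 and 99.13 TPM in Tet2 KO cells and 33.58 and 32.77 TPM in WT cells (limma adjusted p = 2.56e-13). The IL-18 receptor chains were higher as well. Il18r1 had 13.23 and 12.72 TPM in Tet2 KO cells and 9.08 and 9.15 TPM in WT cells (limma adjusted p = 5.77e-05), a call that missed the threshold after scaling to the spike-ins (0.0514, the highest over the alternatives, whose lowest was 1.60e-05). Il18rap, the accessory chain, had 150.19 and 157.45 TPM in Tet2 KO cells and 77.97 and 81.1 TPM in WT cells, 1.93-fold higher (limma adjusted p = 4.70e-11). Next to the cluster, the kinase gene Map4k4 was higher (64.7 ± 1.77 TPM in Tet2 KO cells and 43.1 ± 1.80 TPM in WT cells, SD, n = 2), and Slc9a4 and Slc9a2 were at or below 0.1 TPM.

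**Figure D4:**
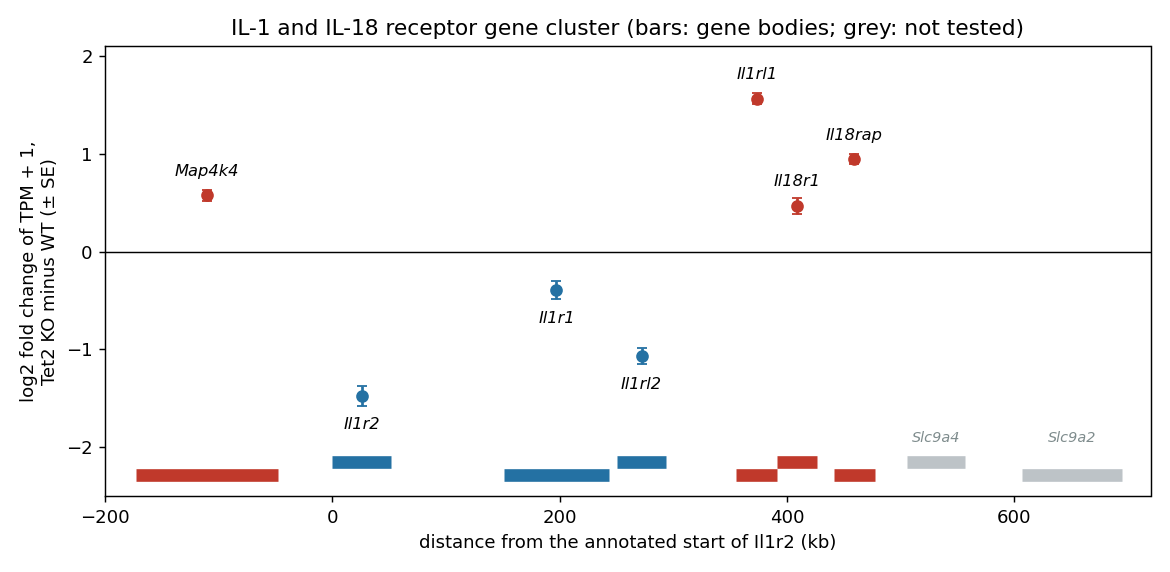
Log2 fold change of TPM + 1 (Tet2 KO minus WT, with SE) of the genes in and beside the IL-1 and IL-18 receptor cluster, against distance in kb from the annotated start of Il1r2, with gene bodies as bars (red higher, blue lower, grey not tested). Il1r2, Il1r1 and Il1rl2 lie below 0, and Il1rl1, Il18r1 and Il18rap above it.

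In the neighbourhood of the 10 genes as a whole, 36 other protein-coding genes lie within 2 positions on either side. Of these 17 were tested, 10 were higher, 5 lower and 2 not called, or 5 higher and 6 lower after rescaling. Over all tested genes the shares were 54.4% higher and 19.5% lower, or 33.3% and 34.4% after rescaling.

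The other genes of the pathway were read from 5 lists with 80 symbols, of which 79 had a row and 64 were tested. In all, 36 were higher and 20 lower, a median log2 fold change of 0.22 against 0.23 over all genes. After rescaling, 23 were higher and 24 lower. Over all tested genes 54.4% were higher and 19.5% lower, or 33.3% and 34.4% after rescaling. Among 6 tested receptors outside the 10 genes, 4 were higher and 2 lower (median 0.67), and again 4 and 2 after rescaling (median 0.44). Beside those of the cluster, Sigirr, which encodes an inhibitory receptor of the family, had 14.1 and 19.73 TPM in Tet2 KO cells and 9.03 and 8.39 TPM in WT cells (limma adjusted p = 0.00247). Il1rapl1 and Il1rapl2 were listed at 0 in every library. Among the other ligands and antagonists 2 of 7 were tested. Il1f9, which encodes IL-36 gamma, had 17.83 and 18.64 TPM in Tet2 KO cells and 14.02 and 16.39 TPM in WT cells (limma adjusted p = 0.00941). After rescaling its difference was 0.02 (limma adjusted p = 0.841), it turned to -0.028 after scaling to the spike-ins, and it was not called without Tet2 KO replicate 2 (0.0728) or without WT replicate 1 (0.21), with a range of 0.00399 to 0.924 over the alternatives. Il18bp, the IL-18 binding protein gene, was tested and not called (6.32 and 5.49 TPM in Tet2 KO cells, 5.61 and 5.55 TPM in WT cells, limma adjusted p = 0.55). Il1f5, Il1f8 and Il1f10 were listed at 0 in every library.

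Of 22 tested other inflammasome sensors and regulators 8 were higher and 10 lower (median -0.10), against 54.4% and 19.5% of all tested genes. After rescaling 5 were higher and 13 lower, against 33.3% and 34.4%. The called genes named next, from Txnip to Map3k8, had a limma adjusted p of 5.04e-05 or less on the deposited scale. Txnip, whose product binds thioredoxin and has been described as a partner of NLRP3, had 1120.74 and 1144.67 TPM in Tet2 KO cells and 392.54 and 407.16 TPM in WT cells (log2 fold change 1.50). The DNA sensor gene Aim2, which also signals through ASC, had 77.17 and 70.73 TPM in Tet2 KO cells and 45.49 and 49.82 TPM in WT cells (log2 fold change 0.62). Ifi203 (0.62, SE 0.0851), of a family of similar copies and therefore uncertain, and Nlrc3 (0.59, SE 0.0899), a NOD-like receptor gene, were higher too. After rescaling these differences were 1.25 for Txnip, 0.38 for Aim2, 0.40 for Ifi203 and 0.37 for Nlrc3. On that scale Nlrc4, a sensor gene that acts with NAIP proteins (-0.75), and Ripk3, a necroptosis kinase gene (-0.74), differed by more than the last 3. They were lower on the deposited scale too (-0.53 and -0.50) and are named after their values were seen. So are 3 genes below the 5 TPM set for naming, which had the largest falls of the list. On the deposited scale Mefv differed by -1.13, Nlrp1b by -0.92 and P2rx7 by -0.85. Nlrp9b was listed at 0 in every library. Of 10 tested caspase, gasdermin and pore genes 5 were higher and 3 lower (median 0.17), or 3 and 3 after rescaling, beside the shares of all tested genes given above. Casp4, the gene of caspase-11, which cuts gasdermin D after sensing lipopolysaccharide, lies beside Casp1 and had 30.82 and 30.16 TPM in Tet2 KO cells and 18.54 and 20.18 TPM in WT cells (log2 fold change 0.63). Ninj1, whose product ruptures the membrane of dying cells, was higher (0.70, SE 0.0446), and Serpinb1a, a protease inhibitor gene with similar copies and therefore uncertain, was lower (-0.37, SE 0.0332). After rescaling Casp4 differed by 0.39, Ninj1 by 0.45 and Serpinb1a by -0.62, and the last ranged from -0.67 with spike-in scaling to -0.10 with quantile normalization. The largest change in that list was of Cd59a (3.08, SE 0.145, or 1.77 with a pseudocount of 5), which encodes an inhibitor of the complement pore and not a gasdermin, and which also has a close copy. Gsdmc was listed at 0.

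Of 24 receptor-proximal signalling genes, 18 were higher and 5 lower on the deposited scale (median 0.28), where 54.4% of all tested genes were higher and the median was 0.23. After rescaling, 11 were higher and 6 lower (median 0.05), against 33.3% and 34.4% of all tested genes. The kinase gene Irak2 had 40.65 and 42.46 TPM in Tet2 KO cells and 27.21 and 25.62 TPM in WT cells (log2 fold change 0.63). Traf6, the ubiquitin ligase that links IRAK kinases to TAK1, had 22.9 and 22.19 TPM in Tet2 KO cells and 14.71 and 14.71 TPM in WT cells (0.58). Peli2, a ubiquitin ligase gene of the same complex, differed by 0.85 (SE 0.0951) and the kinase gene Map3k8 by 0.59 (SE 0.0848). All 4 were also higher after rescaling, by 0.35 to 0.64.

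**Figure D5:**
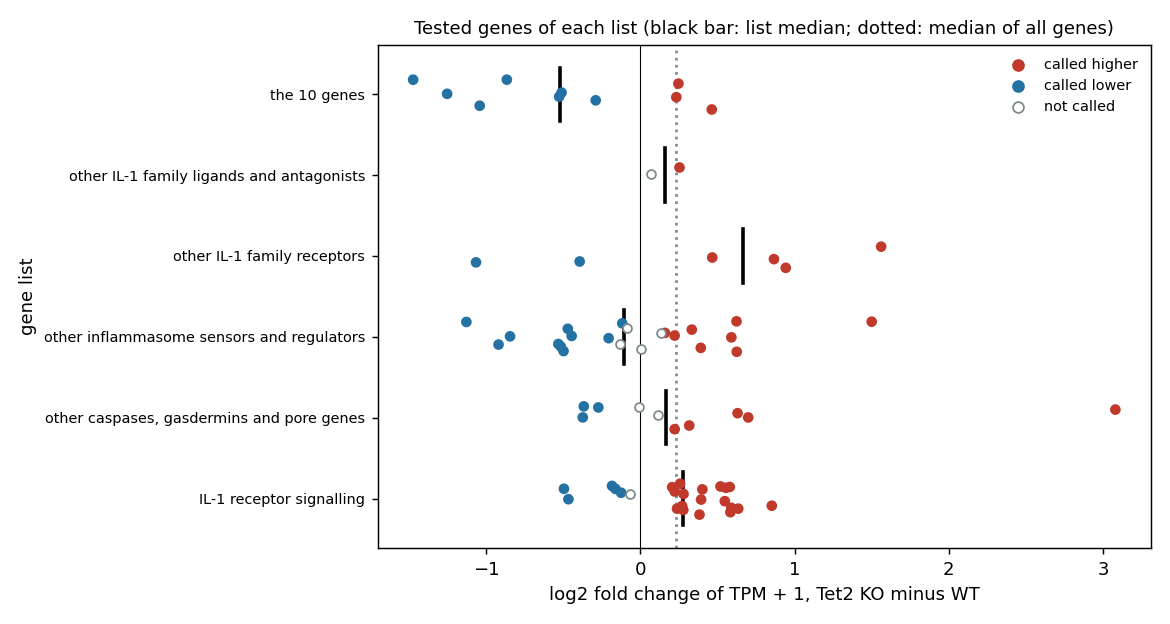
Log2 fold change of TPM + 1, Tet2 KO minus WT, of each tested gene in the 10-gene set and in 5 lists of other pathway genes, with the list median as a black bar and the median of all genes (0.23) as a dotted line. The median is -0.52 for the 10 genes and between -0.10 and 0.67 for the other lists.

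IL-1 and inflammasome genes are expressed by monocytes and neutrophils, and most tested markers of these cells were lower too. Of 11 tested monocyte and macrophage markers 9 were lower and 2 higher (Adgre1 and Fcgr1), or 10 and 1 (Fcgr1) after rescaling. Over all tested genes 19.5% were lower and 54.4% higher, or 34.4% and 33.3% after rescaling. Summed levels of the monocyte and macrophage list were 9261 and 9362 TPM in Tet2 KO cells and 22055 and 22022 TPM in WT cells. Lyz2 made up most of these sums, and its log2 fold change ranged from -1.63 to -0.38 over the alternatives. All 9 tested neutrophil markers were lower, before and after rescaling. Their list summed to 13645 and 13201 TPM in Tet2 KO cells and 30452 and 30337 TPM in WT cells. S100a8 and S100a9 made up most of these sums. The log2 fold change of S100a9 ranged from -1.12 to 0.066 over the alternatives, so it was not lower under all of them. In the list for leukaemic myeloid cells, Mpo, Csf3r and Cebpa were higher on both scales, while Spi1 and Itgam were lower on both. Of 7 tested mast cell and basophil markers 3 were higher and 4 lower, before and after rescaling. The sums of that list were 5359 and 5171 TPM in Tet2 KO cells and 2286 and 2304 TPM in WT cells. Cpa3, a mast cell protease gene, made up most of these sums, and the other 7 listed genes summed to 329.2 and 324.5 TPM in Tet2 KO cells and 569.9 and 553.7 TPM in WT cells, which is the opposite direction. Of 6 dendritic cell markers 5 were below 1 TPM in every library, with Cd209a at 0, and the tested one, Itgax, was lower, which left sums of 9.81 and 11.6 TPM in Tet2 KO cells and 86.5 and 86.6 TPM in WT cells. The part of these cell types in the differences of the 10 genes was not tested, and in bulk RNA fewer cells of a type and less RNA per cell cannot be told apart.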

How the data were processed

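Per the labels' protocols, QIAzol was used for RNA and a stranded mRNA kit for the libraries. STAR, RSEM and mm10 are named, without versions, per the submitters' processing notes. The annotation and any filters are not stated there. The authors deposited 1 table of TPM for 4 libraries, with 24589 rows, of which 92 were spike-ins (left out of tests) and 27 had date-like names (tested, not named). TPM keep no depth, so depth is unknown and a value of 0 says no more than that the gene is listed at 0.

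The 2 groups were compared with limma 3.58.1 and statmod 1.5.0 in R 4.3.3 on log2(TPM + 1), with trend and robust estimation. The 11452 genes that reached 1 TPM in 2 or more libraries were tested, two-sided, with Benjamini-Hochberg adjustment over all of them and a threshold of 0.05. The log scale understates changes of low genes. Folds without log2 are ratios of mean TPM. The limma fit was tested on simulated data. Of each list up to 4 called genes averaging at least 5 TPM in the higher group were named, by largest change. Motifs and CG pairs were counted in RefSeq promoters, matched for 80.9% of tested genes. Gene positions and neighbours come from GENCODE M21 (same build). The 10 genes and the lists were chosen with earlier results of these data known. Alternatives were pseudocounts of 0.1 and 5, no filter or one of 5 TPM, a replicate block, median-ratio, spike-in and quantile scaling, no trend, no robust estimation and leaving out each library. Plots were made in Python 3.11.15 (matplotlib 3.10.9).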

Additional observations from a re-analysis of the deposited data

Results flagged for a closer look

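The spike-in RNAs, which were left out of the genes tested, took a larger share of both Tet2 KO libraries than of both WT libraries. The shares were 5.48 and 5.33% in Tet2 KO and 4.38 and 4.43% in WT. Scaling to the spike-ins brought the median log2 fold change over the tested genes to -0.044, and Nlrp3 and Casp1 were then not called.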

How the results depend on the processing

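Il1a, Il1b, Il1rn, Il1r2, Il18, Pycard and Gsdmd kept their direction and their call under all alternatives run that tested them; Il18 was not tested with the filter of 5 TPM. The number of the 10 genes called higher was 3, and 1 with median-ratio, spike-in and quantile scaling, which bring the median over the tested genes to 0.0023, -0.044 and 0.0074, against 0.23. Casp1 turned to -0.0057 with median-ratio scaling and -0.0542 with spike-in scaling, and Nlrp3 to -0.0443 with spike-in scaling. Il1f9 turned to -0.0284 with spike-in scaling and -0.0089 with quantile normalization. Tet2 turned to -0.22, -0.27 and -0.25 with median-ratio, spike-in and quantile scaling (limma adjusted p = 0.00935, 0.00278 and 0.00491; over all alternatives 0.00278 to 0.992) and ranged from -0.0012 (without WT replicate 1) to 0.028 (without WT replicate 2) when 1 library was left out. Of the other pathway genes, 36 were higher and 20 lower; 23 were higher with median-ratio and 18 with spike-in scaling, and 13 were lower with the filter of 5 TPM, which tests 57 of them. Leaving out each library gave 2 to 3 higher and 6 to 7 lower of the 10 genes, and 30 to 35 higher and 16 to 20 lower of the other pathway genes. The genes at 2-fold or more numbered 2 with a pseudocount of 5 and 4 with median-ratio, spike-in or quantile scaling, against 3. Libraries with the same replicate number share only a number (correlation of their deviations from the group means -0.0733), and the replicate block left 3 higher and 7 lower of the 10 genes and 36 higher and 18 lower of the others. Depth is unknown, so counting error of low genes such as Il18 cannot be given.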

Other observations

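Enzymes that cut IL-1 family precursors without the inflammasome were read after values of these data were known. Of the neutrophil serine protease genes, Elane, Prtn3 and Ctsg were read, and each was called lower in Tet2 KO, as were 19.5% of all tested genes. Elane averaged 10.8 ± 0.212 TPM in Tet2 KO cells and 38.2 ± 1.35 TPM in WT cells, Prtn3 61.1 ± 4.32 TPM in Tet2 KO cells and 116.4 ± 4.97 TPM in WT cells, and Ctsg 731.7 ± 7.83 TPM in Tet2 KO cells and 1194 ± 0.933 TPM in WT cells (SD, n = 2). The calpain genes, whose products cut the IL-1 alpha precursor, were lower by less. Capn1 averaged 49.9 ± 2.46 TPM in Tet2 KO cells and 66.3 ± 0.424 TPM in WT cells (limma adjusted p = 6.04e-06), and Capn2 117.4 ± 2.83 TPM in Tet2 KO cells and 140.6 ± 0.863 TPM in WT cells (limma adjusted p = 8.37e-05).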
